A study of Homo sapiens with 13 samples.

Results

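RAB GTPases are the largest family of small GTPases that direct membrane traffic. They were taken by symbol alone, as RAB followed by a number and at most 1 letter. The Silvestrol table held 59 RAB genes among 24875 gene symbols, and the INK128 table held 48 of them among 13121 symbols. Of the 59 genes, 47 passed the filter used for all genes, which asked for a mean ribosome footprint (RF) RPKM of at least 1, a mean mRNA RPKM of at least 0.3 and a value above 0 in each of the passage 3 libraries at 2 h. RPKM is the read count scaled to the counted length of the gene and to the size of the library. The 12 genes below the filter were RAB3C, RAB6B, RAB6C, RAB17, RAB19, RAB25, RAB33A, RAB39, RAB39B, RAB40A, RAB41 and RAB42, and each had an RF RPKM under 1 in all 7 RF libraries.

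RAB proteins switch between a GDP-bound and a GTP-bound form. Exchange factors load them with GTP on a given membrane, GTPase-activating proteins turn them off, and a prenyl group attached with the help of escort proteins holds them in the membrane. Each RAB marks a compartment or a route: RAB5 the early endosome, RAB7 the late endosome, RAB11 the recycling endosome, RAB1 and RAB2 the path between endoplasmic reticulum and Golgi, RAB8 and RAB10 carriers to the cell surface, and RAB27 secretory and lysosome-related organelles.

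All libraries came from MDA-MB-231 cells, an established human line from a ductal breast carcinoma that lacks hormone receptors. Cells of passage 3 were left untreated, or were given DMSO or 25 nM Silvestrol, an inhibitor of the RNA helicase eIF4A, for 1 h or 2 h. The 2 h pair was repeated at passage 4. Poly(A) mRNA was sequenced from passage 3 at 2 h, in 1 library with DMSO and 1 with Silvestrol, so the mRNA and 1 h values had no replicate check. In a separate experiment, passage 3 cells were given DMSO or 200 nM INK128, an inhibitor of the kinase mTOR, for 2 h, with 1 RF and 1 total RNA library each. The treatment field of the passage 3 Silvestrol RF library at 2 h names 1 h, and that of the DMSO mRNA library names untreated cells; both were placed by their titles.

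Counted reads ranged from 2652423 in the passage 4 Silvestrol RF library to 50315607 in the DMSO mRNA library, so the passage 4 values of low genes are the least precise. Among markers of this line, vimentin (VIM) was at 6454 RF RPKM with DMSO at 2 h in passage 3, and the estrogen receptor gene ESR1 was at 0 in both DMSO RF libraries at 2 h, in the untreated RF library and in the DMSO mRNA library. The epithelial marker EPCAM was present at 3.24 and 9.69 RF RPKM with DMSO at 2 h, while CDH1 was at 0 and 0.046. The RAB genes together took 0.377% and 0.384% of the RF reads with DMSO at 2 h in passages 3 and 4, and 0.303% and 0.281% with Silvestrol. RPKM is relative to each library's total, and in whole cultures fewer cells and less RNA per cell cannot be told apart.

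Footprint levels of the 47 genes spanned a wide range with DMSO at 2 h in passage 3. The highest were RAB7A, the late endosomal RAB, at 563 RPKM, RAB11A at 409.5 and RAB1A at 403. The lowest were RAB26, a RAB of secretory granules, at 0.774, RAB3B at 1.11 and RAB37 at 1.65, from 20, 24 and 37 reads. The 5 genes RAB7A, RAB11A, RAB1A, RAB5C and RAB11B held 38.3% of the summed RF RPKM of the 47 genes in that library, and this share was 39.4% with Silvestrol.

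After 2 h of Silvestrol the footprints of 7 of the 47 RAB genes fell and none rose (edgeR, quasi-likelihood test, adjusted p under 0.05). The 7 were RAB7A, RAB9B, RAB10, RAB21, RAB23, RAB24 and RAB27A. They are 14.9% of the RAB genes tested, beside 7.66% of all 10516 genes called lower and 2.26% called higher. At an unadjusted p under 0.05 (edgeR) there were 18 RAB genes lower and 2 higher, beside 18.7% and 12.6% of all 10516 genes (3287 in either direction). DESeq2 called 8 lower and none higher, the additional gene being RAB5C, beside 10.4% and 5.82% of the genes it tested. The median log2 change was −0.32 for the RAB genes and −0.01 for all genes.

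RAB7A drives endosomes towards lysosomes. Its RF RPKM was 563 and 504 with DMSO in passages 3 and 4 and 236 and 206 with Silvestrol, a log2 change of −1.14 ± 0.16 (SE, edgeR adjusted p = 0.0245). RAB10, which carries cargo such as the glucose transporter to the cell surface, went from 262 and 299.8 with DMSO to 78.4 and 81.4 with Silvestrol (log2 change −1.68 ± 0.13, edgeR adjusted p = 0.016). For both genes the DMSO and Silvestrol libraries stood far apart and the passages lay close together.

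RAB21, an early endosomal RAB that binds integrins, was at 161 and 158 RPKM with DMSO and at 65.5 and 40.7 with Silvestrol (log2 change −1.42 ± 0.27, edgeR adjusted p = 0.0399). RAB23, known as a negative regulator of Hedgehog signalling, was at 50.5 and 58.4 with DMSO and at 14.3 and 14.0 with Silvestrol (log2 change −1.80 ± 0.18, edgeR adjusted p = 0.0183). The Silvestrol values of RAB21 differed between passages by more than those of RAB23.

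RAB24, which takes part in autophagy, was at 44.4 and 46.6 RPKM with DMSO and at 15.5 in both passages with Silvestrol (log2 change −1.42 ± 0.19, edgeR adjusted p = 0.0235). RAB27A, which docks secretory and lysosome-related vesicles at the plasma membrane, was at 60.6 and 61.0 with DMSO and at 23.4 and 19.96 with Silvestrol (log2 change −1.33 ± 0.19, edgeR adjusted p = 0.026). RAB9B, a paralogue of the late endosome to Golgi RAB RAB9A, showed the lowest log2 change, −2.47 ± 0.39 (edgeR adjusted p = 0.0297), from 9.57 and 7.90 RPKM to 1.41 and 1.47. It rested on few reads, 193 and 38 with DMSO and 14 and 3 with Silvestrol. The passage 4 ratio of reads, scaled to library size, was 0.192 with a 95% exact counting interval of 0.0379 to 0.605. The 7 calls needed both Silvestrol libraries. With either left out of the edgeR test, 1 library was left on that side and the spread came from the DMSO libraries alone. The log2 changes of RAB10 were then −1.72 without the passage 3 and −1.68 without the passage 4 Silvestrol library, and those of RAB23 −1.90 and −1.76. In the same order they were −2.51 and −2.46 for RAB9B and −1.49 and −1.39 for RAB24. They moved more for RAB21 (−1.90 and −1.12), RAB27A (−1.54 and −1.21) and RAB7A (−1.30 and −1.02). An unadjusted p under 0.05 was found for 9 RAB genes (1593 of all genes) and 10 RAB genes (1897 of all genes).

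**Figure D1:**
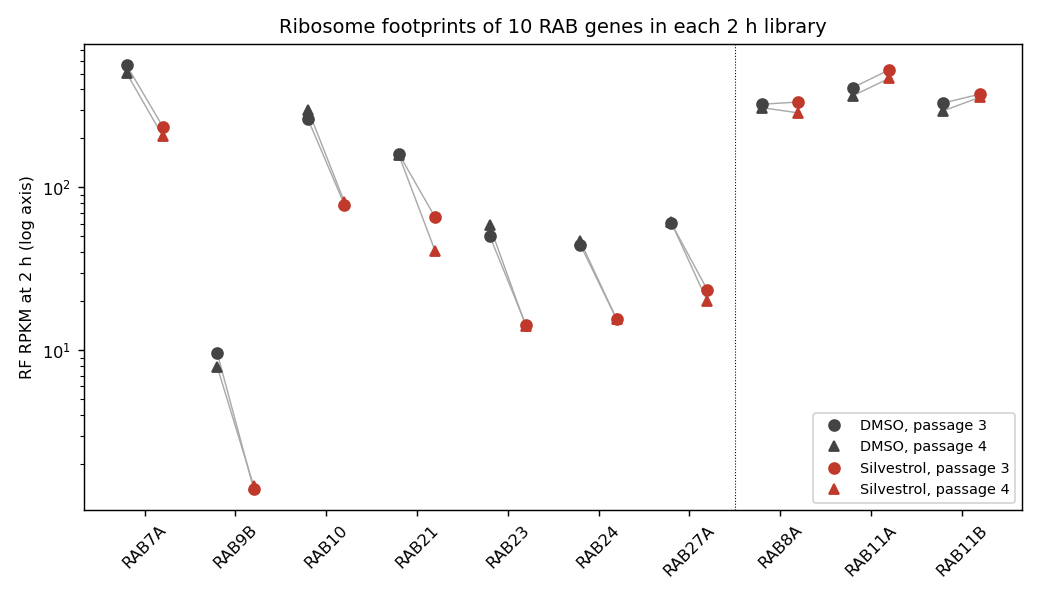
RF RPKM (log axis) in the 4 libraries at 2 h for the 7 RAB genes called lower with Silvestrol (left of the dotted line) and for RAB8A, RAB11A and RAB11B (right of it). Circles are passage 3, triangles passage 4, black DMSO and red Silvestrol, and lines join the libraries of 1 passage. The DMSO and Silvestrol points of the 7 genes, which were chosen by the test on these same libraries, do not overlap, while those of RAB8A do.

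When the passage entered the model as a block, 24 RAB genes were called lower and 4 higher (edgeR), 51.1% and 8.51% of the 47, beside 28.1% and 25% of all genes. The 17 genes added to the 7 by the block included RAB1A, RAB2A, RAB5A, RAB5B, RAB5C, RAB6A, RAB9A, RAB12, RAB14, RAB18, RAB20, RAB22A and RAB31. The 4 higher genes were RAB11A, RAB11B, RAB13 and RAB37. P-values with the block rest on a spread estimated over all genes. From the RPKM values, 31 of the 47 genes were lower with Silvestrol in both passages and 4 were higher in both, where 50% and 30.5% of all genes were so. Of the remainder, 11 had opposite signs in the passages and RAB26 had no reads with Silvestrol in passage 4.

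Sorted by compartment, the 6 early endosomal genes all had the same direction. All of them, RAB5A, RAB5B, RAB5C, RAB21, RAB22A and RAB31, had lower RF RPKM with Silvestrol in both passages, and their summed RPKM went from 999.5 and 993 with DMSO to 516 and 480.3 with Silvestrol. One of the 6, RAB21, was called without the block and all 6 with it; their median log2 change was −0.69. The 7 late endosomal and lysosome-related genes had a median of −0.64, with 3 called lower (RAB7A, RAB9B and RAB27A), and their summed RPKM went from 867 and 779 to 441 and 378.

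The 6 recycling genes past the filter had summed RPKM of 1326 and 1305 with DMSO and 1380 and 1298 with Silvestrol, and none was called without the block. With it, RAB4A, RAB4B and RAB14 were lower and RAB11A and RAB11B higher. The 11 endoplasmic reticulum and Golgi genes had a median log2 change of −0.12 with none called, and 4 were lower with the block. Among the 9 genes of secretory and polarised transport only RAB10 was called lower, the median was 0.16, and the block called 2 lower (RAB3D and RAB10) and 2 higher (RAB13 and RAB37). The 8 genes that the list left outside these compartments, RAB12 and RAB15 among them, had the lowest median, −0.85. Of these, RAB23 and RAB24 were called lower and 5 were lower with the block, and their summed RPKM went from 225 and 227 to 103.5 and 104. The differences between compartments were not tested.

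**Figure D2:**
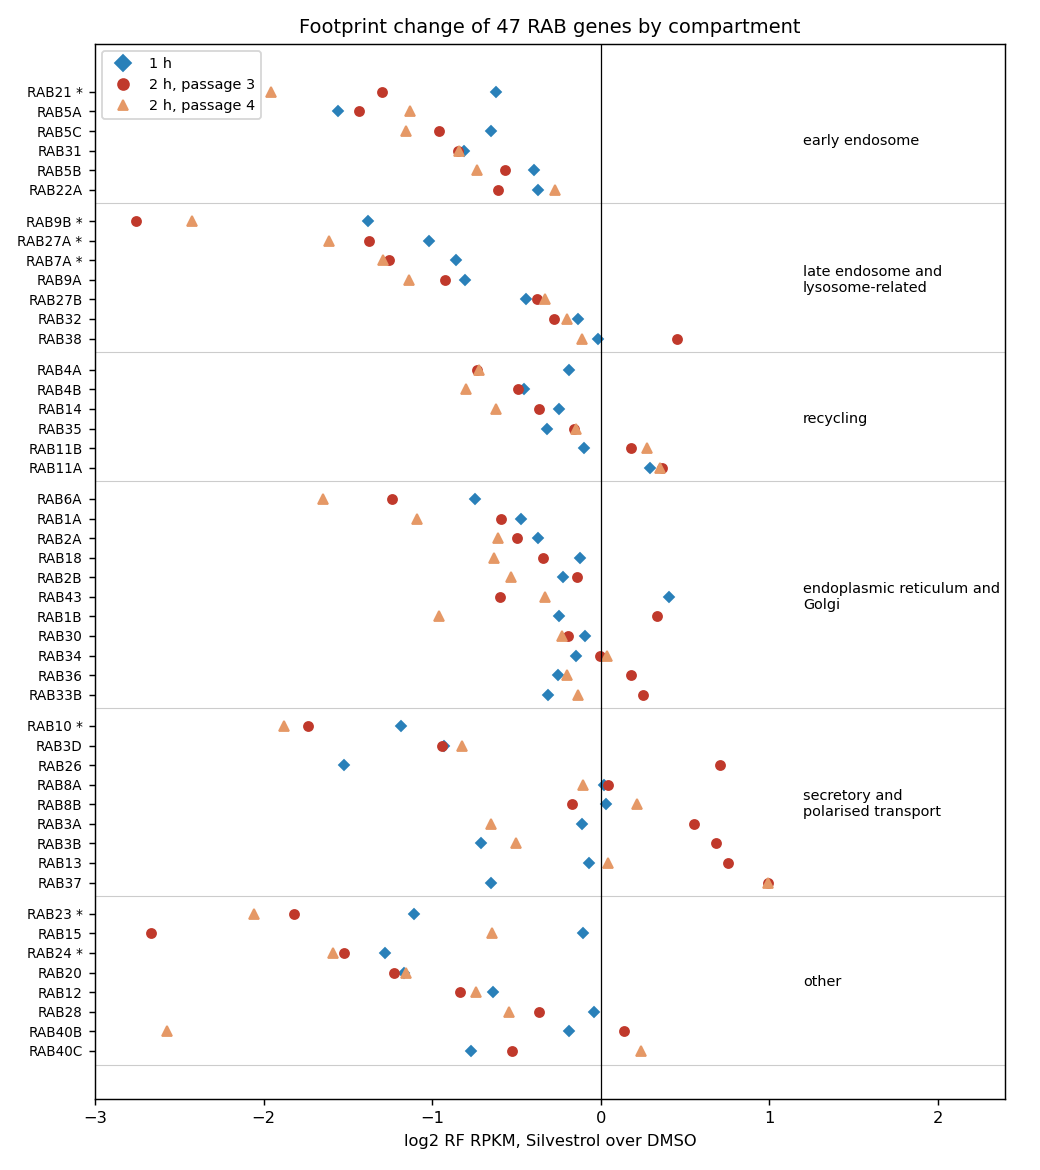
Log2 ratio of RF RPKM with Silvestrol over DMSO (x axis) for each of the 47 RAB genes, grouped by compartment, at 1 h (diamonds) and at 2 h in passage 3 (circles) and passage 4 (triangles). An asterisk marks an edgeR adjusted p under 0.05 at 2 h. All early endosomal genes lie left of 0 at both times, and RAB11A lies right of 0 in all 3 comparisons.

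Paralogues of 1 RAB number are often similar in protein sequence, and their footprint values are given side by side; differences between paralogues were not tested. In the RAB5 group, which governs homotypic fusion of early endosomes, RAB5A went from 149.8 and 131.5 RPKM with DMSO to 55.4 and 60.0 with Silvestrol (log2 change −0.76 ± 0.22, edgeR adjusted p = 0.084, with the block 2.89e-07). RAB5C went from 399 and 411 to 205 and 185 (log2 change −0.70 ± 0.16, edgeR adjusted p = 0.0535, with the block 1.23e-09). RAB5B went from 157 and 173 to 106 and 104 (log2 change −0.49 ± 0.13, edgeR adjusted p = 0.0767, with the block 0.000178). All 3 were lower in both passages. Of the 3, RAB5A had the lowest log2 RPKM ratio in passage 3 (−1.43), and RAB5C in passage 4 (−1.16, beside −1.13 for RAB5A). With the counted length of the gene as an offset, the log2 change of RAB5A was −1.23 (edgeR adjusted p = 0.0237).

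The counted length, taken as reads over RPKM, was not constant for several RAB genes. The authors left positions with reads that match more than 1 place out of the RPKM calculation, and the part of this step in the changing length was not tested. Relative to the median gene, the Silvestrol over DMSO ratio of counted length was 1.45 and 1.43 for RAB6A in passages 3 and 4, 1.33 and 1.30 for RAB5A, 1.15 and 1.32 for RAB1A and 1.23 and 1.15 for RAB9A. With the counted length as an offset, edgeR called 12 RAB genes lower and none higher, beside 10.1% and 1.69% of all genes; the 5 added were RAB5A, RAB5C, RAB6A, RAB12 and RAB20. For the 7 genes named first the ratio lay between 0.995 and 1.01.

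RAB6A, a Golgi RAB, was at 92.5 and 76.1 RPKM with DMSO and at 39.1 and 24.3 with Silvestrol (log2 change of the reads −0.78 ± 0.21, edgeR adjusted p = 0.0803, with the block 0.000162). RAB20, a RAB of maturing phagosomes, was at 25.5 and 21.4 with DMSO and 10.9 and 9.61 with Silvestrol (log2 change −1.05 ± 0.26, edgeR adjusted p = 0.0647, with the block 1.81e-06). RAB12, a RAB of traffic to lysosomes, was at 76.6 and 74.8 with DMSO and 43.0 and 44.8 with Silvestrol (log2 change −0.66 ± 0.16, edgeR adjusted p = 0.0637, with the block 8.83e-06). In each of these genes both Silvestrol values were below both DMSO values, and the share of all genes separated in this way was not counted. None was called by the test of the reads without the block, while the counted-length offset called all 3, and RAB20 was also called without the passage 4 DMSO library (log2 change −1.19, edgeR adjusted p = 0.0455). With the offset the log2 change of RAB6A was −1.33 (edgeR adjusted p = 0.049). RAB31, an early endosomal and Golgi RAB, was at 27.8 and 29.2 with DMSO and 15.5 and 16.3 with Silvestrol (log2 change −0.68 ± 0.22, edgeR adjusted p = 0.112, with the block 0.00284).

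In the RAB11 pair, which returns cargo from recycling endosomes to the surface, RAB11A was at 409.5 and 365 RPKM with DMSO and at 527 and 467 with Silvestrol (log2 change 0.47 ± 0.12, edgeR adjusted p = 0.0643, with the block 5.71e-06). RAB11B was at 330.3 and 296 with DMSO and at 374 and 358 with Silvestrol (log2 change 0.36 ± 0.14, edgeR adjusted p = 0.151, with the block 0.000695). Both were higher in each passage. RAB4A, another recycling RAB, was at 32.8 and 29.8 with DMSO and 19.8 and 18.1 with Silvestrol (log2 change −0.59 ± 0.22, edgeR adjusted p = 0.137, with the block 0.00311), and RAB4B was at 20.2 and 28.1 with DMSO and 14.4 and 16.2 with Silvestrol (log2 change −0.53 ± 0.26, edgeR adjusted p = 0.238, with the block 0.0417).

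RAB8A and RAB8B, which with RAB10 and RAB13 belong to the RAB8 subfamily of surface-directed carriers, were close to their DMSO values. RAB8A was at 324 and 309 RPKM with DMSO and at 335 and 287 with Silvestrol (log2 change 0.12 ± 0.14, edgeR adjusted p = 0.596). RAB8B was at 76.0 and 65.1 with DMSO and at 67.6 and 75.6 with Silvestrol (log2 change 0.16 ± 0.17, edgeR adjusted p = 0.579). Neither kept 1 direction in both passages. RAB13, a RAB of tight junctions, was at 11.9 and 19.9 with DMSO and at 20.05 and 20.5 with Silvestrol (log2 change 0.54 ± 0.61, edgeR adjusted p = 0.589, with the block 0.0414). The 2 DMSO libraries of RAB13 differed from each other by more than its Silvestrol libraries did, and its log2 change was −0.10 without the passage 3 and 1.31 without the passage 4 DMSO library.

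RAB27B is the other RAB27 of secretory vesicles. It was at 12.8 and 15.2 RPKM with DMSO and at 9.80 and 12.2 with Silvestrol (log2 change −0.23 ± 0.26, edgeR adjusted p = 0.587). Its share of the summed RAB27 RF RPKM was 17.4% and 19.98% with DMSO and 29.5% and 37.8% with Silvestrol. RAB9A, in turn, was at 79.0 and 68.9 with DMSO and at 41.6 and 31.3 with Silvestrol (log2 change −0.64 ± 0.18, edgeR adjusted p = 0.0854, with the block 0.000456). It held 89.2% and 89.7% of the RAB9 footprints with DMSO and 96.7% and 95.5% with Silvestrol.

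RAB1A and RAB1B serve the same early secretory route. RAB1A was at 403 and 401 RPKM with DMSO and at 267 and 188 with Silvestrol (log2 change −0.42 ± 0.15, edgeR adjusted p = 0.133, with the block 0.00118). RAB1B was at 128 and 159.7 with DMSO, and with Silvestrol at 162 in passage 3 and 82.1 in passage 4 (log2 change −0.10 ± 0.35, edgeR adjusted p = 0.87). With the counted-length offset the log2 change of RAB1A was −0.76 (edgeR adjusted p = 0.0712). RAB1B had opposite directions in the passages. RAB1A held 75.9% of the summed RF RPKM of the pair but 10.5% of its mRNA RPKM with DMSO in passage 3, and the counted-length ratio of RAB1B was 1.06 and 1.11 for RFs and 1.14 for mRNA.

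RAB2A, a Golgi RAB, was at 243 and 277 RPKM with DMSO and at 172 and 181 with Silvestrol (log2 change −0.41 ± 0.13, edgeR adjusted p = 0.109, with the block 0.000485). RAB2B was at 31.9 and 31.6 with DMSO and at 28.9 and 21.8 with Silvestrol (log2 change −0.17 ± 0.24, edgeR adjusted p = 0.672). RAB3D, the most abundant RAB3 of regulated exocytosis in these cells, was at 20.2 and 12.8 with DMSO and at 10.5 and 7.22 with Silvestrol (log2 change −0.70 ± 0.37, edgeR adjusted p = 0.262, with the block 0.00382). All 3 were lower in both passages, while none was called without the block. The log2 change of RAB3D was −0.29 without the passage 3 DMSO library and −1.10 without the passage 3 Silvestrol library.

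The other members of multi-gene groups were low. RAB3A was at 3.67 and 4.21 RPKM with DMSO and at 5.39 and 2.69 with Silvestrol, and RAB3B at 1.11 and 1.91 with DMSO and 1.77 and 1.35 with Silvestrol. RAB40C, a RAB with a ubiquitin ligase adaptor domain, was at 12.2 and 7.66 with DMSO and 8.48 and 9.03 with Silvestrol, and RAB40B at 1.85 and 2.10 with DMSO and 2.04 and 0.352 with Silvestrol. Each of these 4 genes had opposite directions in the passages. RAB37 had 37 and 13 reads with DMSO and 36 and 11 with Silvestrol, or 1.65 and 2.43 RPKM against 3.27 and 4.84 (log2 change 1.11 ± 0.46, edgeR adjusted p = 0.173, with the block 0.0222). These low reads leave wide counting intervals. RAB15 had 39 and 11 reads with DMSO and 3 in each Silvestrol library, or 1.89 and 2.24 RPKM against 0.298 and 1.43 (log2 change −1.66 ± 0.82, edgeR adjusted p = 0.236, with the block 0.0315). The change was −0.44 without the passage 3 and −2.58 without the passage 4 Silvestrol library. The passage 4 ratio of reads for RAB15, scaled to library size, was 0.663 with a 95% exact counting interval of 0.119 to 2.51. RAB26 had 20 and 8 reads with DMSO and 16 and 0 with Silvestrol, or 0.774 and 1.30 RPKM against 1.27 and 0.

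The question of translation against mRNA abundance was addressed with the mRNA libraries. At 2 h, 9 of the 47 RAB genes had at least 1.5-fold lower mRNA RPKM with Silvestrol and 6 at least 1.5-fold higher, beside 11.9% and 18.3% of all genes. The median log2 mRNA change was −0.08 for the RAB genes and 0.04 for all genes. Of the 7 genes with fewer footprints, RAB21 had mRNA at 14.0 RPKM with DMSO and 25.6 with Silvestrol, and RAB23 at 9.66 and 16.1. The mRNA values of RAB7A (86.6 and 90.8), RAB24 (27.3 and 28.1), RAB27A (7.89 and 8.02) and RAB10 (32.5 and 37.4) lay close together. RAB9B was at 1.36 and 1.03. So 6 of the 7 had mRNA levels at or above the DMSO level, with 1 library on each side.

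Translation efficiency (TE), the RF RPKM over the mRNA RPKM, put these values together. In passage 3 the TE of RAB21 was 11.5 with DMSO and 2.56 with Silvestrol, that of RAB10 was 8.04 and 2.10, and that of RAB23 was 5.23 and 0.889. The log2 change in TE was turned into a z-score over all genes (mean −0.31, SD 0.99). It was below −1.5 for 6 RAB genes, beside 6.52% of all genes, and above 1.5 for 3, beside 4.62%. The 6 were RAB15 (−2.39), RAB23 (−2.27), RAB9B (−2.07), RAB5A (−1.92), RAB21 (−1.87) and RAB10 (−1.64). The z-scores were also taken with the passage 4 RFs over the same passage 3 mRNA libraries, so only the footprint part was repeated. Those of RAB23 (−2.62), RAB21 (−2.64), RAB10 (−1.87), RAB9B (−1.81) and RAB5A (−1.69) were then below −1.5, and that of RAB15 was −0.37. RAB40B, with 14 and 1 reads in passage 4, joined them at −2.39, and RAB37 (1.51) was alone above 1.5, beside 6.75% and 4.78% of all genes.

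The 3 genes above 1.5 were RAB3A (2.32), RAB3B (1.70) and RAB1B (1.55). In each, the mRNA was lower with Silvestrol: RAB3A went from 2.34 to 0.864 RPKM, RAB3B from 0.512 to 0.319 and RAB1B from 208 to 113. With the passage 4 RFs their z-scores were 1.14, 0.50 and 0.23. The high z-scores therefore rested on the passage 3 footprints and on 1 mRNA library per treatment.

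RAB5A and RAB5C show how mRNA and footprints combined. The RAB5A mRNA was 19.0 RPKM with DMSO and 32.5 with Silvestrol, and its TE was 7.88 and 1.70. The RAB5C mRNA was 201 and 123, and its TE was 1.99 and 1.67, a z-score of 0.06. So RAB5C footprints and mRNA were lower side by side, while RAB5A footprints were lower and its mRNA higher. The counted-length ratio of RAB5A was 1.33 for the passage 3 RFs and 0.944 for mRNA, and that of RAB5C 1.16 and 1.07. From the reads, with both passages, the log2 TE change of RAB5A was −1.34 (edgeR adjusted p = 0.117). With the counted-length offset it was −1.83 (edgeR adjusted p = 0.0752), and from RPKM in passage 3 alone −2.21.

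In the edgeR test of TE over RF and mRNA libraries, no RAB gene and no other gene passed; 13 RAB genes had an unadjusted p under 0.05, of which 11 were lower and 2 higher, among 2594 such genes in all. DESeq2 called 3 RAB genes lower (RAB10, RAB21 and RAB23) and none higher, beside 6.5% and 4.54% of the genes it tested. The lowest edgeR adjusted p of the family was 0.0728, for RAB10 (log2 TE change −1.73) and RAB23 (−2.41). In the blocked TE model, 13 RAB genes were lower and 7 higher (edgeR), beside 22.9% and 23.1% of all genes. The 7 higher were RAB1B, RAB3A, RAB8A, RAB11B, RAB34, RAB37 and RAB38.

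**Figure D3:**
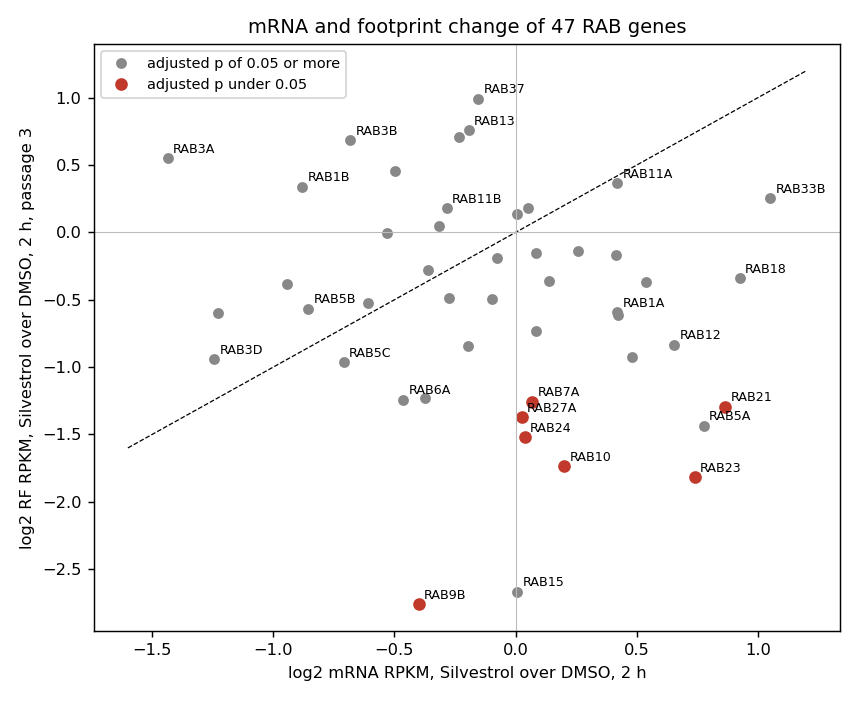
Log2 change of mRNA RPKM (x axis) and of RF RPKM in passage 3 (y axis) at 2 h of Silvestrol for 47 RAB genes, each from 1 library per treatment. Red points had an edgeR adjusted p under 0.05 for RF over both passages, and the dashed line marks equal change. RAB21, RAB23 and RAB5A lie at the lower right, with more mRNA and fewer footprints, and RAB3A, RAB3B and RAB1B at the upper left.

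The 1 h libraries, 1 per treatment, gave an earlier view. At 1 h, 19 of the 47 RAB genes had at least 1.5-fold lower RF RPKM with Silvestrol and none at least 1.5-fold higher, beside 21.8% and 1.64% of all genes. All genes together had a median log2 change of −0.18 at 1 h, and relative to it 13 RAB genes were lower and 1 higher (RAB43), beside 14.1% and 5.01%. The lowest log2 change of RPKM was that of RAB5A, −1.56, from 153 to 52.0. Its reads, scaled to library size, had a ratio of 0.455, above the ratios of RAB26 (0.378), RAB9B (0.418) and RAB24 (0.449), so its place in this order depended on the counted length. On the RPKM scale it was followed by RAB26 (−1.52, from 52 and 13 reads), RAB9B (−1.38), RAB24 (−1.28), RAB10 (−1.18), RAB20 (−1.17), RAB23 (−1.11) and RAB27A (−1.02).

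RAB7A was at 538 with DMSO and 297 with Silvestrol at 1 h, RAB10 at 268 and 118, RAB23 at 54.7 and 25.4, and RAB21 at 159 and 103. All 7 genes called at 2 h were thus lower at 1 h too, by less than at 2 h. In all, 30 of the 47 RAB genes were lower at 1 h and in both passages at 2 h, beside 46.1% of all genes. RAB11A, at 383 with DMSO and 470.0 with Silvestrol, was higher in all 3 comparisons, as were 22.3% of all genes. Across the 47 genes the log2 changes at 1 h and at 2 h in passage 3 had a Pearson's r of 0.50 (Spearman's rho 0.56), below the r of 0.75 across all genes, as a description, since the genes share libraries. In untreated cells, RF RPKM was 584 for RAB7A, 297 for RAB10, 171 for RAB21, 66.3 for RAB23 and 432 for RAB11A.

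The annotated 5′ UTRs (GENCODE version 44 on GRCh37, the build that the authors call hg19) were set beside the footprint changes, since eIF4A unwinds 5′ UTRs for the scanning ribosome. All 47 RAB genes had a 5′ UTR there, as had 86.3% of all genes tested. Median length was 185 nt for the RAB genes and 134 nt for the 9074 genes, and median GC content 71.1% and 67.7%. The 7 genes called lower had 5′ UTRs of 185 nt (RAB7A) to 647 nt (RAB23), with a median of 314 nt; the other 40 ranged from 3 nt to 602 nt with a median of 151.5 nt. RAB10 had 525 nt, RAB24 431 nt, RAB21 267 nt and RAB27A 240 nt. On GRCh37, RAB10 lies at chr2:26256953-26360323 and RAB21 at chr12:72148643-72194066 on the plus strand, and RAB23 at chr6:57051790-57087105 on the minus strand.

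Of the 13 RAB genes with at most 100 nt none was called lower (2 with the block), and their median log2 RF change was 0.16. Of all genes of that length, 0.715% were called lower (7.44% with the block). Of the 13 RAB genes with more than 100 and up to 200 nt, 1 was called (6 with the block, median −0.28), beside 4.94% of all such genes (27.5% with the block). Of the 21 with more than 200 nt, 6 were called (16 with the block, median −0.70), beside 18.2% (54.1% with the block). The called shares thus went up with length among the RAB genes and among all genes. Across the 47 genes, Spearman's rho between length and log2 RF change was −0.63, and it was −0.59 across the 9074 genes, so the RAB genes followed the general trend. These correlations are descriptions across genes of the same libraries. RAB34, a Golgi and ciliary RAB, was an exception with 602 nt and RF RPKM of 241 and 233 with DMSO and 241 and 239 with Silvestrol. RAB12 was another, with 3 nt annotated and lower RPKM in both passages. RAB18 (66 nt) was the other RAB gene of at most 100 nt called lower with the block (edgeR adjusted p = 0.013), at 184 and 216 RPKM with DMSO and 146 and 139 with Silvestrol. RAB8A (13 nt), RAB8B (19 nt), RAB11B (57 nt) and RAB11A (95 nt) also had 5′ UTRs in this range and were not called lower. All lengths and length classes rest on 1 annotated transcript per gene, and the transcript starts used in these cells were not measured. The loci deposited with INK128 begin elsewhere for some genes. RAB8A begins there at 16222489, upstream of the 16222699 used here, and RAB12 at 8609442, downstream of 8609435.

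**Figure D4:**
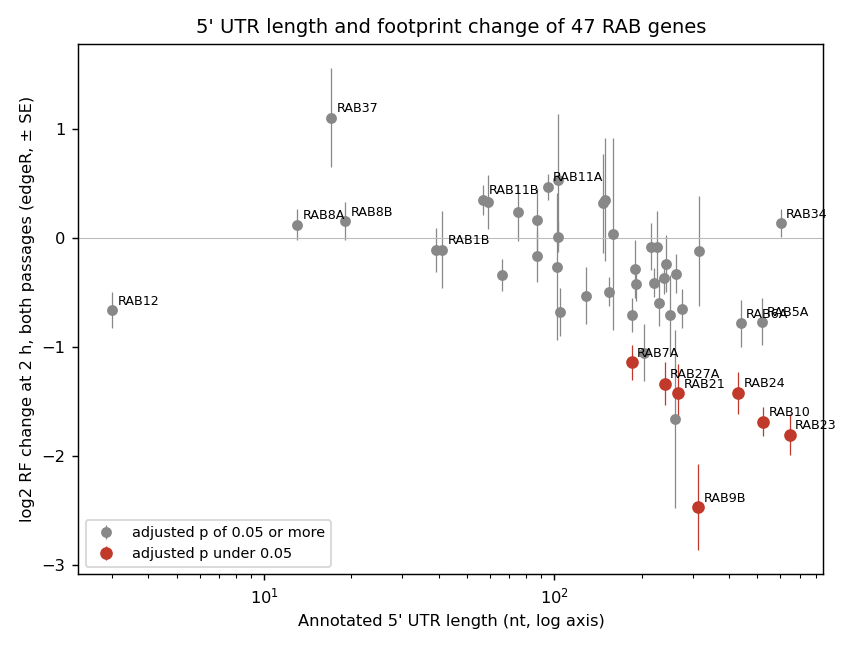
Annotated 5′ UTR length in nt (x axis, log axis) against the log2 RF change at 2 h over both passages (y axis, edgeR, bars are the SE) for 47 RAB genes. Red points had an edgeR adjusted p under 0.05. The 7 red points all lie at 185 nt or more, and RAB34 at 602 nt lies above 0.

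The motif CGGCGGCGGCGG, 4 CGG units of a repeat linked to RNA structure in 5′ UTRs, was searched on the transcript strand. It was present in 4 of the 47 RAB genes tested (8.51%), RAB2A, RAB5A, RAB6A and RAB22A, and in 4.71% of the 9074 genes. The RAB5A run counted 7 CGG units and those of RAB6A and RAB22A 4 each. All 4 were lower with the block and none without it; of the 427 genes with the motif, 56% were lower with the block and 20.4% without it. The windows below, 30 bases each on GRCh37, show the repeat in capitals in 3 of the 4 genes, while RAB2A is named only: RAB5A at chr3:19988750-19988779 (plus strand, 348 nt before the start codon), RAB6A at chr11:73472081-73472110 (minus strand, 421 nt before it) and RAB22A at chr20:56884790-56884819 (plus strand, 234 nt before it).
RAB5A: ctccagcgcCGGCGGCGGCGGCGGCGGCGG
RAB6A: gttgggctgCGGCGGCGGCGGcagctgtgg
RAB22A: ccaagatggCGGCGGCGGCGGctcccggaa
None of the 7 genes called without the block held the motif in its annotated 5′ UTR, which says only that these letters were not in that stretch. RAB22A itself was at 106 and 90.3 RPKM with DMSO and 69.1 and 74.9 with Silvestrol (log2 change −0.32 ± 0.18, edgeR adjusted p = 0.281, with the block 0.0224).

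The INK128 table asked the same of mTOR inhibition. It holds FPKM values from 1 library per group, so no test was possible, and levels are not comparable with the RPKM values. Of the 48 RAB genes in it, 26 passed the filter (mean RF FPKM of at least 1 and mean RNA FPKM of at least 0.3). None had a 1.5-fold change in RF FPKM in either direction, beside 3.48% of 7102 genes lower and 3.96% higher. The median log2 RF change was 0.11 for the RAB genes and 0.01 for all genes.

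The RNA FPKM of all genes was lower with INK128 by a median log2 change of −1.17, and RNA and TE changes are given relative to the whole. As deposited, all 26 RAB genes had at least 1.5-fold lower RNA FPKM, as had 92% of all genes. Relative to the median, 1 was lower (RAB4B) and none higher, beside 2.42% and 7.97%. RAB4B RNA was at 0.696 FPKM with DMSO and 0.130 with INK128, and its RF at 5.84 and 6.95. RAB4B was also the only RAB gene with a TE z-score past 1.5 in size (3.03), above 1.5 as in 1.75% of all genes, and none was below −1.5, where 5.58% were. It rested on low RNA values, and no RAB gene was above 1.5 with a pseudocount of 0.5, where 2.51% of all genes were. A minimum FPKM of 5 kept only 1 RAB gene and removed RAB4B, so it could not check this score. Z-scores from the median and MAD (median absolute deviation) put 3 RAB genes below and 3 above, where 12.3% and 6.86% of all genes were.

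RAB13 had the lowest z-score, −1.22, and the lowest log2 RF change, −0.56, from 44.03 to 29.9 FPKM. RAB24 had a z-score of 1.40 and RAB22A of 1.08. The 5 RAB genes of the filter that were called lower with Silvestrol were near the middle or above it with INK128: RAB7A was at 62.7 FPKM with DMSO and 74.8 with INK128 (z-score 0.40), RAB10 at 30.1 and 33.2 (−0.02), RAB21 at 21.7 and 23.9 (0.53), RAB24 at 10.6 and 11.6 (1.40) and RAB27A at 6.12 and 5.90 (−0.11). RAB23 was under the RNA minimum and RAB9B under both minimums; RAB23 RF was 7.03 and 6.83 and RAB9B RF 0.485 and 0.465. RAB5A, with a z-score of −1.92 under Silvestrol, was at 30.7 and 33.7 (0.33). No difference between the drugs was tested, since they were not run on shared libraries and INK128 had 1 library per group.

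**Figure D5:**
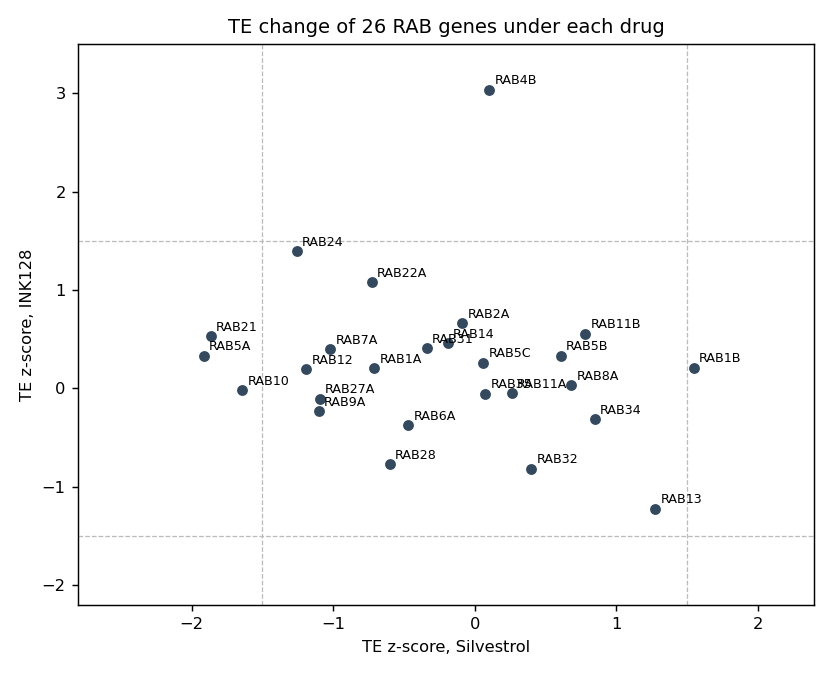
TE z-score with Silvestrol in passage 3 (x axis) and with INK128 (y axis) for the 26 RAB genes that passed both filters; dashed lines mark −1.5 and 1.5. RAB5A, RAB21 and RAB10 lie left of −1.5 with INK128 z-scores between −0.02 and 0.53, and RAB4B lies alone above 1.5.

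Sensitivity to mTOR inhibitors is known for transcripts that begin with a C followed by a tract of pyrimidines (C or T in DNA letters). Of the 47 annotated RAB transcripts, 5 began with C and at least 3 further pyrimidines, beside 6.83% of the 9074 genes: RAB3D, RAB4A, RAB13, RAB15 and RAB24. The first 20 bases are shown, with the leading tract in capitals, for RAB13 and RAB24, the lowest and the second highest z-score with INK128, and for RAB4A, which has the longest tract. They lie on GRCh37 at chr1:153958796-153958815 (minus strand), chr5:176730701-176730720 (minus strand) and chr1:229406858-229406877 (plus strand).
RAB13: CTTCCTggcctgggctccgt
RAB24: CTCTagccccctcccgcggg
RAB4A: CTCTTCCTCCTCgcggtcgc
RAB4A was under the RNA minimum; its RF was 4.39 FPKM with DMSO and 3.56 with INK128.

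The proteins that load, extract and turn off RABs were listed by role, and 96 of the 106 passed the filter in the Silvestrol table. Footprints of 11 fell and none rose at 2 h (edgeR, adjusted p under 0.05), with 31 lower and 10 higher at an unadjusted p under 0.05, where 18.7% and 12.6% of all genes were so; DESeq2 called 14 lower and 1 higher. The background is 7.66% lower and 2.26% higher, as above. The median log2 change of the 96 was −0.23. With the block, 44 were lower and 19 higher, beside 28.1% and 25% of all genes, and the DESeq2 calls stand beside 10.4% and 5.82%. By role, 6 of 28 GTPase-activating proteins, 3 of 35 effectors, 1 of 26 exchange factors and 1 of 4 prenylation and escort proteins fell, and of the 3 GDP dissociation inhibitors and release factors none was called.

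The 5 with the lowest log2 changes were TBC1D5, RAB11FIP2, HPS4, SYTL4 and EVI5. TBC1D5, a GTPase-activating protein for RAB7, was at 16.1 and 21.9 RPKM with DMSO and at 3.22 and 3.23 with Silvestrol (log2 change −2.41 ± 0.22, edgeR adjusted p = 0.0171). RAB11FIP2, an effector of RAB11, was at 7.05 and 7.59 with DMSO and 1.31 and 1.68 with Silvestrol (log2 change −2.21 ± 0.29, edgeR adjusted p = 0.0219). So RAB7A and TBC1D5 both fell, while RAB11FIP2 fell and RAB11A was not called without the block. HPS4, part of the exchange factor for RAB32 and RAB38, changed by −1.97, SYTL4, an effector of RAB27, by −1.76, and EVI5, a protein with a RAB GTPase-activating domain, by −1.48 on the log2 scale.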

How the data were processed

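The 2 deposited tables, 1 per drug, held RF and RNA values of MDA-MB-231 libraries. Per the labels, CASAVA 1.8.1 and Bowtie2 2 were used, while the methods name Bowtie. For the Silvestrol table the authors aligned reads free of rRNA to hg19 and UCSC canonical transcripts, and deposited read counts of uniquely mapped reads and RPKM values per gene, leaving out ambiguous positions. For INK128 the authors deposited FPKM values without counts, and the program behind them is not given in the sources used here. Libraries were strand-specific. The deposited columns of the TE ratio, its change and a score of that change hold the authors' own comparisons, the log2 columns are, per the file headers, logs of mean RPKM or of FPKM, and none was used. The number of per-sample columns that could not be assigned to a sample was 0.

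Repeated lines were dropped, leaving 25758 of 38897 lines in the Silvestrol table. Where a symbol had several entries, as RAB35 had 2, the one with most RFs by mean RPKM was kept. The test of RF counts at 2 h was that of edgeR 4.0.16, run under R 4.3.3 (TMM, glmQLFit, glmQLFTest, 2 libraries per group), and TE as the interaction of assay and treatment over 6 libraries. SE is the log2 change over the square root of the F statistic. DESeq2 1.42.0 was an alternative, with adjusted p-values left out where it gave none. P-values were adjusted over all genes by Benjamini-Hochberg, with a threshold of 0.05. Without replicates, changes of at least 1.5-fold were counted and not tested. Z-scores of log2 TE changes used RPKM or FPKM without a pseudocount. The passage number was taken to pair the DMSO and Silvestrol samples, and the labels do not say that they shared a culture. Passage deviations correlated between the treatments with r = 0.732, and the source of this correlation was not tested. The p-values without the block measure the spread between these 2 passages only, with edgeR sharing information over genes. With the block the difference between the passages is taken out. The blocked p-values rest on a spread estimated over all genes, and do not measure how a change repeats between cultures. Intervals cover counting error only.

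RAB genes named with full values were those called with or without the block at a log2 change of at least 0.58 in size, those with a z-score past 1.5 in size, members of paralogue groups with 2 or more genes past the filter, and the 3 highest and 3 lowest RF levels; others were named where a count was small or after their values were seen. Compartments and the machinery list were set by hand. Members, lists and tests were chosen with earlier results of these data known. 5′ UTRs were those of MANE Select transcripts (99.4%) in GENCODE version 44 lifted to GRCh37, otherwise of the longest coding sequence. Models were also run on simulated data without a passage effect, which cannot decide between the models with and without the block. Alternatives covered scaling, filters, pseudocounts, the block, the counted length, other controls, thresholds and each of the 4 RF libraries at 2 h left out. Other steps ran in Python 3.11.15 (pandas 2.3.3, numpy 2.4.6, scipy 1.17.1).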

Additional observations from a re-analysis of the deposited data

Results flagged for a closer look

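In 4 RAB genes the RF change at 1 h had the opposite sign to that in both passages at 2 h of Silvestrol, as log2 ratios of RPKM, out of 46 RAB genes with all 3 ratios, where 12% of all genes had such a sign. RAB37 was at −0.65 at 1 h and at 0.99 in both passages at 2 h, from 11 to 48 reads per library. RAB43 was at 0.40 at 1 h and at −0.60 and −0.33 at 2 h, from 3 to 38 reads per library. RAB13 was at −0.07 at 1 h and at 0.76 and 0.04 at 2 h, and RAB11B at −0.10 at 1 h and at 0.18 and 0.27 at 2 h. With 1 library per treatment at 1 h, the difference between the times was not tested. Relative to the median of all genes (−0.18 at 1 h and −0.17 at 2 h in passage 3), RAB11B and RAB13 were above it at both times.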

How the results depend on the processing

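The count of RAB genes with fewer RFs at 2 h was 7 and stayed between 7 and 8 with DESeq2, RLE scaling, other filters or without either DMSO library; it was 24 with the replicate block and 12 with the counted-length offset. Leaving out single libraries gave 0 to 8 RAB genes lower in RF, 0 higher, and 0 to 5 lower in TE with 0 higher, while lower calls over all genes ranged from 0 to 896 in RF and from 0 to 640 in TE, with 0 without either Silvestrol library. The block gave 4 RAB genes higher in RF, and 13 lower and 7 higher in TE. DESeq2 called 3 and the unfiltered fit 2 lower in TE, beside 538 and 174 of all genes. For all genes, lower RF calls numbered 805, and 2956 with the block.

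The RF log2 change of RAB1B was 0.075 with the block and ranged from −0.51 to 0.42 without single libraries, that of RAB2B from −0.48 to 0.028, of RAB8A from −0.029 to 0.23 and of RAB13 from −0.10 to 1.31. Signs turned for RAB1B without either passage 4 library (0.42 without DMSO, 0.016 without Silvestrol), for RAB2B without the passage 4 Silvestrol library, for RAB8A without the passage 3 Silvestrol library and for RAB13 without the passage 3 DMSO library. The cause was not tested.

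With a threshold of 2, 3 RAB genes lay below it and 1 above it with Silvestrol, beside 2.51% and 1.37% of all genes. There was 1 RAB gene above 1.5 with the passage 4 RFs (RAB37, which was not among the 3 of passage 3) and 1 with a minimum RPKM of 5. With INK128, median and MAD gave 3 below and 3 above of 26 (all genes 12.3% and 6.86%), and no minimum FPKM 1 below and 4 above of 48 (all genes 5.61% and 3.72%). A pseudocount of 0.5 left 0 above of 26 (all genes 2.51%). A minimum of 5 kept only 1 RAB gene and not RAB4B, so its 0 above was fixed by the filter. At 1 h, 1 RAB gene was at least 1.5-fold higher relative to the median or to untreated cells. With a minimum of 5, 4 of 34 RAB genes were lower in mRNA with Silvestrol (all genes 12%). For RNA with INK128 the same minimum kept only 1 RAB gene, which was lower (all genes 56.3%). Without a minimum, INK128 RF was lower in 1 and higher in 2 of 48 RAB genes (all genes 3.71% and 4.71%). INK128 RNA was then lower in 47 of 48 (all genes 89.2%). Relative to the median, with the main filter, INK128 RNA was lower in 1 of 26 (all genes 2.42%). The 2652423 reads of the passage 4 Silvestrol library limit genes of few reads.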
